A study of Mus musculus with 4 samples.

Results

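Low values in cardiac macrophages of carboplatin-treated mice were what brought together the 10 genes described here: P3h2, Hs3st3a1, Celf4, Thrb, Ppp1r9a, Cacna1a, Sgce, Dlc1, Magi1 and Btbd11. They were taken by symbol from the 32285 genes of the count files, and all 10 passed the limit on low values, a mean of 10 CPM over the libraries, as did 8492 genes in all. A level in CPM is a gene's share of all unique molecular identifiers (UMIs), both summed over the macrophages of a library, on the usual counts-per-1e6 scale. Because measured values chose the genes, their differences between carboplatin and PBS libraries are a description and were not tested. What the choice did not fix is where the remaining molecules sit: in how many cells, and whether in the cells that hold the receptors Timd4 and Cd163.

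The study pooled hearts of 5 adult mice of mixed sex into each of 4 libraries, 1 per group, and its labels give no strain and no genetic change. The groups were carboplatin followed by angiotensin II with PE (AngII/PE), PBS followed by AngII/PE, carboplatin followed by saline, and PBS followed by saline. Carboplatin, a platinum drug that crosslinks DNA, was given into the peritoneum at 45 mg/kg, and all mice had their injections 2 times a week for 2 weeks. After 4 weeks without injections every mouse carried a pump for 7 days, which held saline or AngII at 1.5 mg/kg per day and PE at 50 mg/kg per day; angiotensin II is a hormone that constricts vessels and raises blood pressure. The sort took heart cells positive for CD64, CD11b and CD45, low for Ly6C and without Ly6G, and 10000 cells were loaded per group. No label ties a cell to an animal. With 1 library per group there is no spread between replicates, so no p-value is given and every comparison is between libraries; the 95% intervals cover counting error only.

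The files held 5997 to 8012 barcodes and 62943457 to 95752612 UMIs per library, and 17312 of 27968 barcodes passed the submitters' filters. Macrophage-like cells, named from their markers, numbered 3921 for carboplatin with AngII/PE, 2127 for PBS with AngII/PE, 1017 for carboplatin with saline and 1949 for PBS with saline, with medians of 14027, 14962, 16384 and 13540 UMIs per cell. The cluster with resident macrophage markers held 1.20%, 4.23%, 83.0% and 91.3% of them in the same order, so the pump groups differ in which macrophages make up the class. In the carboplatin with AngII/PE library its 47 cells held 0 Timd4 UMIs. Cd163 stood there at 7.23 CPM against 32.3 CPM in other macrophages, so these markers do not bear out the name in that library. Clusters with macrophage markers that were left unnamed, for few UMIs or leading rRNA-derived transcripts, are not part of the class. With them it would hold 4841, 3062, 2188 and 3132 cells in the same order of libraries. Of the kept barcodes, 34 occurred in more than 1 library, 7 of them among macrophages. All 7 endothelial markers had UMIs in the macrophages of every library, with a summed level of 62.0 CPM for carboplatin with AngII/PE, 69.1 CPM for PBS with AngII/PE, 54.2 CPM for carboplatin with saline and 44.2 CPM for PBS with saline. The 7 fibroblast markers, all with UMIs too, summed to 297, 266, 168 and 126.5 CPM in the same order, while mural markers stood between 5.84 and 10.6 CPM and B cell markers between 23.3 and 35.4 CPM. The part of these markers in the results was not tested, except where values without the cells that hold them are given.

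Resident macrophages of the heart maintain themselves locally and clear dying cells and debris. Timd4 is a receptor for phosphatidylserine on dying cells and marks a long-lived resident population, and Cd163 is a scavenger receptor for haptoglobin-bound haemoglobin. The 10 genes do not form a pathway: they encode enzymes of collagen and heparan sulphate modification, a nuclear receptor and an RNA-binding protein, scaffolds and regulators of the actin cytoskeleton and of membrane complexes, and a calcium channel, and several are best known from neurons, muscle or epithelium.

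The enzymes of matrix and glycan modification were lower after carboplatin under both pumps. P3h2, a prolyl hydroxylase that acts on collagen chains, stood at 3.41 CPM for carboplatin with AngII/PE, 15.8 CPM for PBS with AngII/PE, 45.5 CPM for carboplatin with saline and 164 CPM for PBS with saline. These values rest on 193, 512, 776 and 4595 UMIs. P3h2 was thus 3.61-fold lower (3.35 to 3.90) in the carboplatin than in the PBS library under saline, and 4.65-fold lower (3.93 to 5.52) under AngII/PE. Hs3st3a1, a sulphotransferase that adds a 3-O-sulphate to heparan sulphate, stood at 2.98 CPM for carboplatin with AngII/PE, 8.84 CPM for PBS with AngII/PE, 27.4 CPM for carboplatin with saline and 66.5 CPM for PBS with saline. Its carboplatin value was 2.43-fold lower (2.19 to 2.69) under saline. Hs3st3a1 has a close relative, Hs3st3b1, with which it could share reads, so its counts carry that uncertainty.

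The nuclear receptor and the RNA-binding protein ordered the libraries the same way. Thrb, the beta receptor for thyroid hormone, had 1.29 CPM for carboplatin with AngII/PE, 6.15 CPM for PBS with AngII/PE, 10.4 CPM for carboplatin with saline and 55.8 CPM for PBS with saline. The carboplatin library was 5.38-fold lower (4.60 to 6.32) under saline and 4.78-fold lower (3.64 to 6.34) under AngII/PE. Celf4, which binds RNA and controls splicing and stability of transcripts in neurons, had 2.24 CPM for carboplatin with AngII/PE, 4.51 CPM for PBS with AngII/PE, 34.7 CPM for carboplatin with saline and 72.1 CPM for PBS with saline. With a 2.08-fold lower value after carboplatin under saline, Celf4 lay close to the 2-fold line, and its interval of 1.90 to 2.28 included it.

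Dlc1, Sgce and Magi1, of the scaffold and membrane-complex genes, held the highest folds under saline. Dlc1, a GTPase-activating protein, stood at 1.04 CPM for carboplatin with AngII/PE, 18.0 CPM for PBS with AngII/PE, 22.2 CPM for carboplatin with saline and 184 CPM for PBS with saline. That is 8.30-fold lower (7.47 to 9.24) after carboplatin under saline. Sgce, epsilon-sarcoglycan, a membrane partner of the dystrophin complex expressed from the paternal allele, stood at 0.212 CPM for carboplatin with AngII/PE, 5.19 CPM for PBS with AngII/PE, 4.16 CPM for carboplatin with saline and 41.9 CPM for PBS with saline. Only 12 UMIs carry the lowest of these values, and the fold under AngII/PE, 24.5, has an interval of 13.7 to 48.4; under saline Sgce was 10.1-fold lower, with 7.93 as the lower end of its interval. Magi1, a scaffold of cell junctions, had 1.11 CPM for carboplatin with AngII/PE, 5.26 CPM for PBS with AngII/PE, 4.16 CPM for carboplatin with saline and 33.1 CPM for PBS with saline, 7.96-fold lower (6.25 to 10.3) after carboplatin under saline. Btbd11, a protein with BTB and ankyrin domains, had 1.91 CPM for carboplatin with AngII/PE, 10.2 CPM for PBS with AngII/PE, 12.2 CPM for carboplatin with saline and 30.9 CPM for PBS with saline, 2.53-fold lower (2.18 to 2.96) under saline.

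The carboplatin folds of several genes differed between the pumps. Under AngII/PE, Dlc1 was 17.3-fold lower (13.2 to 23.0) and Btbd11 5.36-fold lower (4.30 to 6.72), both further than under saline. Magi1, at 4.73-fold lower (3.52 to 6.42), differed less than under saline, with overlapping intervals. For a pair of genes the carboplatin fold was past 2 under only 1 of the pumps. Ppp1r9a, or neurabin, which ties protein phosphatase 1 to actin, stood at 10.7 CPM for carboplatin with AngII/PE, 17.5 CPM for PBS with AngII/PE, 17.5 CPM for carboplatin with saline and 82.4 CPM for PBS with saline. It was 4.72-fold lower (4.18 to 5.34) after carboplatin under saline, but 1.64-fold lower (1.46 to 1.84) under AngII/PE. Cacna1a, the pore subunit of P/Q-type voltage-gated calcium channels, showed the opposite split: 8.03 CPM for carboplatin with AngII/PE, 37.2 CPM for PBS with AngII/PE, 286 CPM for carboplatin with saline and 306 CPM for PBS with saline. Under saline its carboplatin value was 1.07-fold lower (1.03 to 1.11), and under AngII/PE 4.63-fold lower (4.16 to 5.17). Under saline Cacna1a was thus nearly level between the drug groups as a whole, but the log2 ratio was 0.51 in cells called female and -0.71 in cells called male from sex-linked transcripts. Under AngII/PE it was 1.47-fold lower in female-called and 5.78-fold lower in male-called cells. The carboplatin library held 1623 female-called and 1661 male-called macrophages there, and the PBS library 532 and 1293, so the pooled fold mixes unlike shares. Timd4, for comparison, had 0.124, 3.96, 6.09 and 112 CPM in the same order of libraries, and Cd163 had 32.0, 67.0, 42.4 and 356 CPM.

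**Figure D1:**
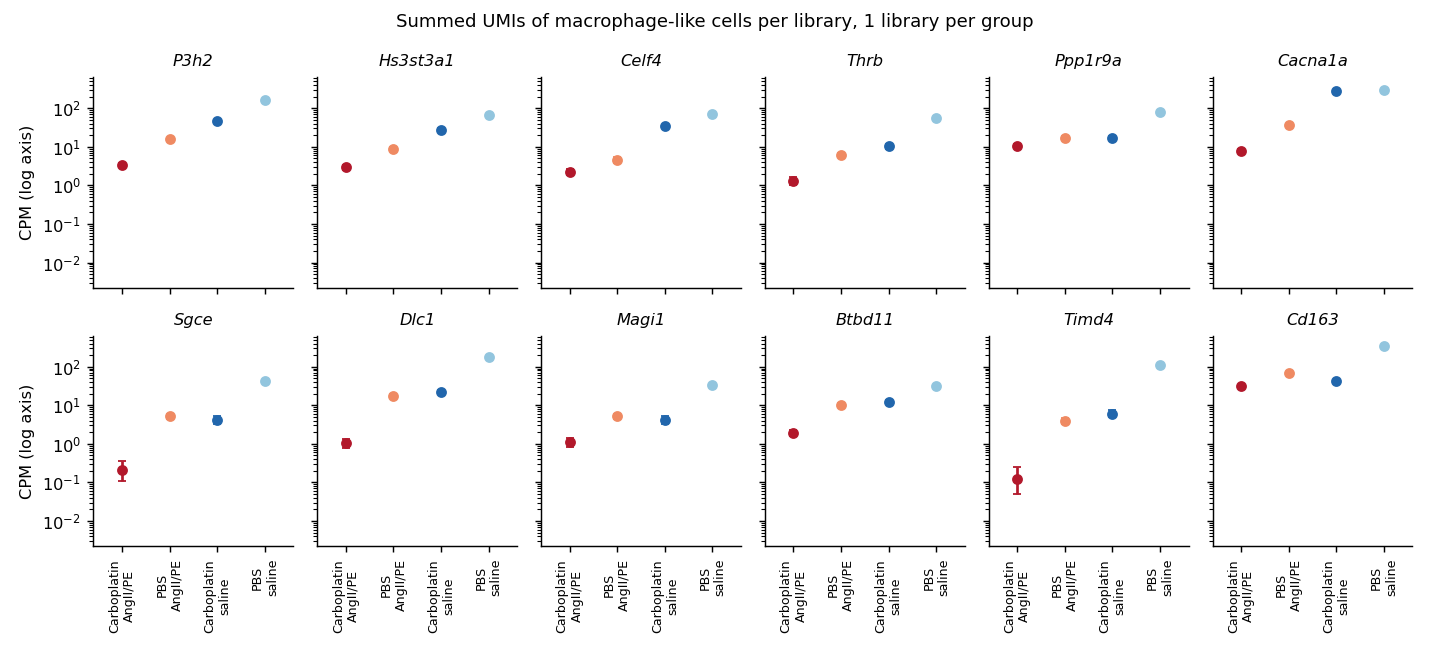
CPM of the 10 genes, Timd4 and Cd163 in the macrophage-like cells of each library, on a log axis; bars are exact 95% Poisson intervals and 1 point is 1 library. PBS with saline is highest in every panel, and carboplatin with AngII/PE is lowest in every panel, with Sgce at 0.212 CPM and Cacna1a at 8.03 CPM there.

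Of the 10 genes, 9 were at least 2-fold lower in the carboplatin than in the PBS library under saline, where 0.695% of all 8492 genes were; since the genes were picked on such values, nothing is read from that count. The median log2 ratio of the 10 was -2.05, with a range of -3.33 to -0.10, against -0.04 for all genes compared. Under AngII/PE, 9 of the 10 were at least 2-fold lower, against 0.483% of all genes, with a median of -2.23 beside 0.01 for all genes. The gene outside was Cacna1a under saline and Ppp1r9a under AngII/PE. No member was at least 2-fold higher in either comparison, where 0.389% of all genes under saline and 0.0942% under AngII/PE were.

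AngII/PE against saline gave larger median differences of the 10 genes. After PBS, all 10 genes were at least 2-fold lower with AngII/PE than with saline, where 3.51% of all genes were, with a median log2 ratio of -3.03 beside 0.00 for all genes. Folds after PBS ran between 3.03 for Btbd11 and 16.0 for Celf4. After carboplatin, 9 were at least 2-fold lower with AngII/PE than with saline, against 2.93% of all genes, with a median of -3.47. There Ppp1r9a was 1.64-fold lower (1.42 to 1.88) and Cacna1a 35.7-fold lower (32.4 to 39.4). None was 2-fold higher in either comparison, against 2.83% of all genes after PBS and 1.92% after carboplatin. The 4 comparisons share libraries, so they do not stand as separate evidence.

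Under saline the difference lay mainly in how many macrophages held a UMI, and less in how many UMIs such a cell held. Dlc1 was found in 6.98% of macrophages of the carboplatin library and 50.7% of the PBS library, yet cells with it held 5.32 and 5.20 UMIs each. Sgce was found in 3.64% of the carboplatin and 33.3% of the PBS macrophages, with 1.92 and 1.81 UMIs per cell that had it. Thrb was found in 5.90% and 27.7%, with 2.95 and 2.89 UMIs. These 3 genes thus had nearly the same number of UMIs per positive cell on both sides while positive cells were far fewer after carboplatin. Magi1 and P3h2 had both components: Magi1 was in 3.84% of carboplatin and 15.8% of PBS macrophages, with 1.82 and 3.02 UMIs per positive cell, and P3h2 in 24.1% and 55.1%, with 3.17 and 4.28 UMIs. Cacna1a was found in more cells after carboplatin, 85.7% against 63.6% in the PBS library, with fewer UMIs in each, 5.60 against 6.91. Cd163 differed from the members in this respect, since its positive cells held 3.06 UMIs in the carboplatin and 7.98 UMIs in the PBS library. These shares and UMIs were not brought to a common depth, and carboplatin macrophages were deeper, with medians of 16384 and 13540 UMIs. In CPM of the positive cells, Dlc1 stood at 314 after carboplatin and 346 after PBS. Sgce stood there at 108 and 117, Thrb at 173 and 186, and Cacna1a at 331 and 476.

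**Figure D2:**
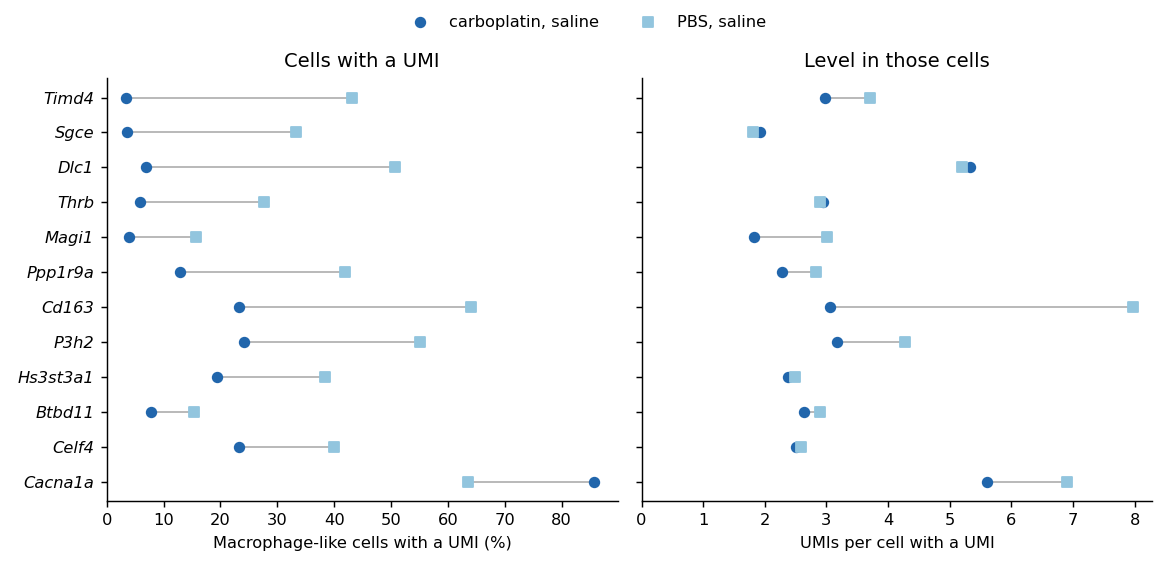
Left, percent of macrophage-like cells with at least 1 UMI of a gene; right, mean UMIs in those cells; circles are carboplatin with saline and squares PBS with saline. Dlc1 and Sgce are far apart on the left (6.98% and 50.7% for Dlc1) and nearly overlap on the right (5.32 and 5.20 UMIs), while Cacna1a is reversed on the left.

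Counted per cell, a macrophage held UMIs of a mean of 0.270 of the 10 genes for carboplatin with AngII/PE, 0.767 for PBS with AngII/PE, 1.94 for carboplatin with saline and 3.82 for PBS with saline. Cells with 5 or more of the genes made up 4.33% of macrophages in the carboplatin and 37.4% in the PBS library under saline. The carboplatin library had the deeper macrophages under saline, and with every cell thinned to 5000 UMIs the means kept their order, at 0.130, 0.431, 1.23 and 2.56. Cells with none of the 10 made up 21.9% of carboplatin and 8.70% of PBS macrophages under saline at that depth, and 8.16% and 4.77% without thinning.

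Free RNA in droplets gives some UMIs to cells that do not express a gene, so shares were compared with other cell types at a common depth of 2000 UMIs per cell. When clusters were named, the B cell-like one passed the limit for all 10 macrophage markers, and the endothelial-like ones for 1 and 6. B cell-like cells are thus not shown to be free of macrophage RNA. The part of such RNA in their shares was not tested. Without thinning, median depths under saline were 16384 UMIs in macrophages, 7787 in endothelial-like and 8536 in B cell-like cells of the carboplatin library, and 13540, 6345 and 8528 UMIs in the PBS library. In the PBS with saline library, Dlc1 was found in 23.3% of macrophages and 10.3% of B cell-like cells, P3h2 in 22.9% and 9.35%, Ppp1r9a in 13.2% and 0.935%, Thrb in 8.91% and 5.61%, and Sgce in 8.19% and 5.61%. In the carboplatin with saline library, P3h2 was found in 7.29% of macrophages and 4.05% of B cell-like cells, Celf4 in 5.42% and 0%, Hs3st3a1 in 5.12% and 1.16%, and Cacna1a in 40.0% and 13.9%. Thrb, however, was found there in 1.77% of macrophages and 2.31% of B cell-like cells, and Sgce in 0.296% and 0.578%. Over all macrophages, these shares alone do not separate expression of Thrb and Sgce from background after carboplatin. The same holds for Magi1, at 0.690% of macrophages against 0 of 173 B cell-like cells, which allows up to 1.73%. Within the library, however, UMIs of all 3 were unevenly spread between cells with and without Timd4.

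Endothelial-like cells are no blank for 3 of the genes, because they carry them: at the same depth in the carboplatin with saline library, 81.5% held Magi1, 64.3% Dlc1 and 6.65% Sgce. In the carboplatin with AngII/PE library all 10 genes were found in under 2% of macrophages at that depth, from 0.0513% for Sgce to 1.64% for Ppp1r9a, while 43 B cell-like cells with no UMI allow up to 6.98%. At this depth, macrophage expression of the 10 genes in that library cannot be told from background by these shares. Leaving out every macrophage with an endothelial marker UMI, an alternative chosen after the data were seen, left 522 carboplatin and 1331 PBS macrophages under saline, and there Dlc1 was 8.83-fold, Sgce 12.9-fold and Magi1 10.0-fold lower. The differences of these 3 genes were as large without those cells.

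The question of whether the genes sit in the same cells as Timd4 or Cd163 had different answers in different libraries. In the carboplatin with saline and PBS with AngII/PE libraries, where few macrophages held Timd4, most of the genes stood at higher levels in these cells. Even so, these cells held the smaller part of each gene's UMIs, at most 39.4%, for Sgce after carboplatin. In the PBS with saline library, where many cells held Timd4, the genes went separate ways. These libraries differed in make-up. The resident-like cluster held 4.23% of macrophages and 67.2% of Timd4 UMIs for PBS with AngII/PE. It held 83.0% and 98.1% for carboplatin with saline, and 91.3% and 94.7% for PBS with saline. The part of cell make-up in the different answers was not tested. Cells of 1 library are not replicates, so the ratios that follow are descriptions with counting intervals.

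In the carboplatin with saline library 35 of 1017 macrophages, or 3.44%, held a Timd4 UMI, and all 10 genes were higher in them than in the 982 others. Of the 10, 8 were at least 2-fold higher, against 0.942% of all genes, with a median log2 ratio of 1.56 beside -0.03 for all genes; none was 2-fold lower, against 4.20%. Sgce stood at 43.7 CPM in Timd4-positive and 2.62 CPM in Timd4-negative cells, 16.7-fold higher (9.99 to 27.5), Dlc1 at 151 and 17.1 CPM, 8.85-fold higher (6.95 to 11.2), and Magi1 at 26.5 and 3.29 CPM, 8.07-fold higher (4.39 to 14.1). With 3.75% of the UMIs of this library's macrophages, the 35 cells held 39.4% of its Sgce UMIs, 25.7% of its Dlc1 UMIs and 23.9% of its Magi1 UMIs. Of the Thrb UMIs they held 11.3%, of P3h2 10.6%, of Celf4 7.60% and of Hs3st3a1 4.70%. P3h2 stood at 128 and 42.3 CPM, Thrb at 31.2 and 9.56 CPM, and Celf4 at 70.2 and 33.3 CPM. Cacna1a, at 389 and 282 CPM, and Hs3st3a1, at 34.3 and 27.2 CPM, differed by less than 2-fold. Without the cells that hold an endothelial marker UMI, which left 16 positive and 506 negative cells, Hs3st3a1 turned to a ratio of 0.722 (0.262 to 1.59), and Celf4 at 1.33-fold and Ppp1r9a at 1.44-fold were no longer past 2-fold. The Hs3st3a1 interval in all cells, 0.784 to 1.94, included a ratio of 1 as well. In cells thinned to 5000 UMIs, 17 had a Timd4 UMI and 982 had none. Shares were not higher in the positive cells for Hs3st3a1 (5.88% and 10.6%), Celf4 (11.8% and 12.9%), Ppp1r9a (5.88% and 6.72%) and Cacna1a (64.7% and 64.8%). The other members had higher shares in them, such as Sgce at 23.5% and 1.83%. The summed endothelial marker level was 57.8 CPM in the Timd4-positive and 54.0 CPM in the Timd4-negative cells, a ratio of 1.07 (0.748 to 1.49). B cell markers had a ratio of 0.392 (0.143 to 0.862), fibroblast markers 0.640 (0.498 to 0.812) and mural markers 1.82 (0.922 to 3.26).

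Cd163 divided that library less sharply, with 236 positive and 781 negative cells. In its Cd163-positive cells 3 members reached a 2-fold higher level, against 0.365% of all genes, and none a 2-fold lower one, against 0.695%: Sgce at 4.02-fold (2.45 to 6.64), Dlc1 at 2.77-fold (2.25 to 3.41) and Magi1 at 2.71-fold (1.64 to 4.43). P3h2, at 47.3 CPM in positive and 44.9 CPM in negative cells, Btbd11, at 12.8 and 12.0 CPM, and Cacna1a, at 299 and 282 CPM, were nearly level.

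In the PBS with AngII/PE library, where 50 of 2127 macrophages held Timd4, all 10 genes were at least 2-fold higher in these cells, against 3.93% of all genes, and so none was 2-fold lower, against 4.46%; the median log2 ratio was 2.41. Magi1 was 18.7-fold higher (13.3 to 26.1), Sgce 11.8-fold (7.96 to 17.0) and Thrb 11.4-fold (7.98 to 16.1), while Celf4, on few UMIs, was 2.03-fold higher (0.799 to 4.29). Splitting by Cd163, with 363 positive and 1764 negative cells, put 8 genes at least 2-fold higher, against 1.33% of all genes; Cacna1a at 1.54-fold and Celf4 at 1.94-fold were the others. The carboplatin with AngII/PE library had 7 Timd4-positive cells, too few to read, and of its 547 Cd163-positive cells a median log2 ratio of 0.26 can be given, with 1 gene at least 2-fold higher, against 0.141% of all genes.

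In the PBS with saline library 842 of 1949 macrophages, or 43.2%, held Timd4, and the 10 genes divided. Thrb was the only one at least 2-fold higher in Timd4-positive cells, a class that held 0.954% of all genes, with 82.2 CPM in positive and 33.7 CPM in negative cells, 2.44-fold higher (2.20 to 2.72). The Timd4-positive cells, with 45.6% of the UMIs, held 67.2% of the Thrb UMIs. Btbd11 went the other way as the only gene at least 2-fold lower, against 1.81% of all genes, with 18.3 CPM in positive and 41.5 CPM in negative cells, a ratio of 0.440 (0.377 to 0.512). Hs3st3a1 was lower too, at 44.9 and 84.6 CPM, a ratio of 0.531 (0.480 to 0.586). Between these lay Magi1 at 1.57-fold, Sgce at 1.47-fold, Ppp1r9a at 1.26-fold, P3h2 at 1.23-fold, Cacna1a at 1.10-fold, Celf4 at 0.938-fold and Dlc1 at 0.831-fold. Dlc1, higher in Timd4-positive cells of the carboplatin with saline library, was slightly lower in such cells of this library, at 166 and 199 CPM.

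At a common depth the shares kept that order, although in CPM of thinned cells no member was past 2-fold in either direction. With cells thinned to 5000 UMIs, Thrb was found in 28.3% of Timd4-positive and 12.4% of Timd4-negative macrophages of the PBS with saline library, Btbd11 in 5.10% and 10.5%, and Hs3st3a1 in 15.6% and 24.8%. Splitting the same cells by Cd163 gave Thrb at 2.01-fold (1.77 to 2.28), the 1 gene past 2-fold higher, against 0.872% of all genes, Btbd11 at 0.609-fold (0.531 to 0.698) and Hs3st3a1 at 0.600-fold (0.548 to 0.658). None was 2-fold lower in Cd163-positive cells, against 1.60% of all genes. Timd4 and Cd163 share cells themselves, with Cd163 at 561 CPM in Timd4-positive and 184 CPM in Timd4-negative macrophages, so these splits are not independent.

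**Figure D3:**
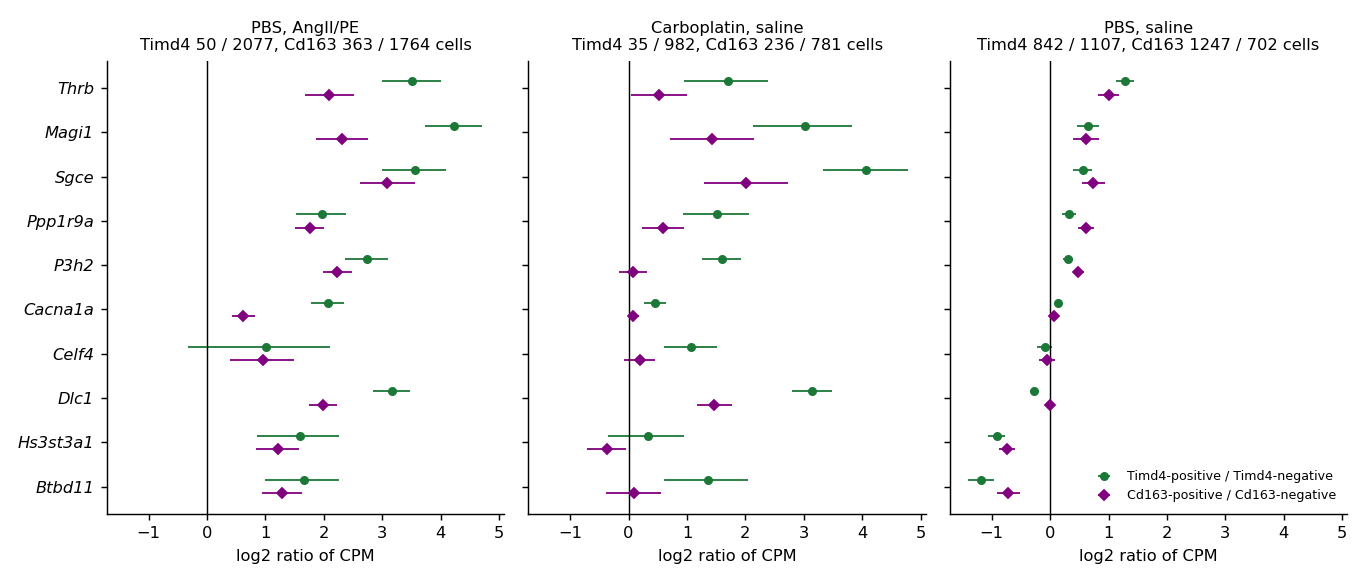
Log2 ratio of CPM in Timd4-positive over Timd4-negative macrophages (circles) and in Cd163-positive over Cd163-negative ones (diamonds) for the 10 genes in 3 libraries; bars are exact 95% intervals and cell numbers stand above each panel. All circles lie right of 0 in the left and middle panels (PBS, AngII/PE; carboplatin, saline), whereas for PBS with saline they run between 1.29 for Thrb and -1.18 for Btbd11.

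Because Thrb and the pair Btbd11 and Hs3st3a1 related to Timd4 in opposite ways, the bases before their starts are shown beside those of Timd4, from RefSeq promoters on GRCm38.p6, plus strand. They lie at chr14:17660710-17660891 for Thrb, chr10:85386564-85386813 for Btbd11, chr11:64435082-64435331 for Hs3st3a1 and chr11:46810549-46810798 for Timd4. The Thrb stretch ends before the first annotated exon in the window. Capitals mark letters searched for on both strands: GAGGAA, the core bound by PU.1, the transcription factor that specifies macrophages; TGCTGA, a half-site of MAF factors; and AGGTCA, the half-site of many nuclear receptors, the thyroid hormone receptors among them.
Thrb: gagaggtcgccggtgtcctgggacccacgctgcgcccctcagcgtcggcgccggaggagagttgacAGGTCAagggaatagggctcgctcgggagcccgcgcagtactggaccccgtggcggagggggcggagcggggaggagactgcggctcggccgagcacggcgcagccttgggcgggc
Btbd11: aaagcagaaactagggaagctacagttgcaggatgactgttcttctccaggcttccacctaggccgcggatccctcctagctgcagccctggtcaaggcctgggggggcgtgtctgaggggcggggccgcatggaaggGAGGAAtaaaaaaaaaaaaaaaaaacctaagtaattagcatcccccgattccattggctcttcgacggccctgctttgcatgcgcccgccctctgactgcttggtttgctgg
Hs3st3a1: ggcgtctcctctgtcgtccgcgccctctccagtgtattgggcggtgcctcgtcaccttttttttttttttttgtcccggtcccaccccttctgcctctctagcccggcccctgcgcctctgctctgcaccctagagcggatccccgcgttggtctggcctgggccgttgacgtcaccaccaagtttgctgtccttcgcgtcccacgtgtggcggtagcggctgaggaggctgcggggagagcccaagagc
Timd4: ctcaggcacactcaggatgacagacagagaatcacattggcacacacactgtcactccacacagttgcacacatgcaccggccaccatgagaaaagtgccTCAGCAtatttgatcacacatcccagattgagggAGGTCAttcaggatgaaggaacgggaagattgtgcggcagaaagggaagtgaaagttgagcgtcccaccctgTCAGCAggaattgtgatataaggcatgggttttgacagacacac
Within the 250 bases before each start, the Thrb stretch held 1 nuclear receptor half-site, the Btbd11 stretch 1 PU.1 core, the Hs3st3a1 stretch none of the 3 words, and the Timd4 stretch 2 MAF half-sites and 1 nuclear receptor half-site. Of 32851 such stretches in the table, 23.3% held the PU.1 core, 16.1% the MAF half-site and 14.0% the nuclear receptor half-site, so single matches are common. The CG dinucleotide occurred 30 times before Thrb, 20 times before Hs3st3a1, 10 times before Btbd11 and 4 times before Timd4, beside a median of 6. Thrb and Btbd11 each have a second start in the table, and the stretches before those held none of the 3 words, with CG 2 times for Thrb and 3 times for Btbd11. Only 5 of the 10 genes had an entry in the table, and a match says nothing of binding.

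The difference between the saline libraries was then followed within receptor states. Macrophages with neither a Timd4 nor a Cd163 UMI were 763 cells, or 75.0%, in the carboplatin and 567 cells, or 29.1%, in the PBS library. In these cells 9 of the 10 genes were at least 2-fold lower after carboplatin, against 0.659% of all genes, and none was 2-fold higher, against 0.436%; the median log2 ratio was -1.77. Dlc1 stood at 11.7 CPM in the carboplatin and 182 CPM in the PBS library, 15.6-fold lower (13.2 to 18.6), Sgce at 1.83 and 24.5 CPM, 13.4-fold lower (8.67 to 21.7), and Magi1 at 2.86 and 17.4 CPM, 6.09-fold lower (4.19 to 9.06). Thrb stood at 9.05 and 24.6 CPM and Celf4 at 32.4 and 68.6 CPM, while Cacna1a was level at 278 and 276 CPM. These are again the values that chose the genes, and a cell with no receptor UMI is not shown to lack the receptor.

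In macrophages that held both receptors the picture was another. Only 17 such cells were in the carboplatin library, against 707 in the PBS library, and the median log2 ratio was -0.03 beside -0.07 for all genes; no member was 2-fold higher, against 2.92% of all genes. There Sgce stood at 63.3 CPM in the carboplatin and 51.3 CPM in the PBS library, Dlc1 at 139 and 161 CPM, Magi1 at 47.5 and 39.1 CPM and Celf4 at 63.3 and 65.2 CPM. Thrb, at 41.2 and 84.4 CPM, was the 1 gene more than 2-fold lower, against 8.60% of all genes, at 2.05-fold with an interval of 1.19 to 3.87. Cells with Cd163 alone, 219 and 540, had a median of -2.03 beside -0.02 for all genes, with 9 members at least 2-fold lower, against 0.919% of all genes, and none higher, against 0.589%. Cells with Timd4 alone, 18 and 135, had a median of -0.70 beside -0.10, with 4 members lower, against 10.0%, and none higher, against 3.11%. With 17 and 18 cells, intervals for single genes are wide, and a difference between the states was not tested.

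Under AngII/PE, macrophages with neither receptor made up 85.9% of the carboplatin and 82.3% of the PBS library, 3369 and 1750 cells. In them 8 of the 10 genes were at least 2-fold lower after carboplatin, against 0.283% of all genes, with a median log2 ratio of -1.59.

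How the genes went together from cell to cell was read by splitting macrophages by a UMI of 1 gene and comparing the level of another. In the PBS with saline library most pairs differed little. The highest values joined Dlc1 and Btbd11, with a log2 ratio of 1.02 for Dlc1 in Btbd11-positive cells and 1.09 for Btbd11 in Dlc1-positive cells. Magi1 was higher in cells with Dlc1, at 1.00, and in cells with Ppp1r9a, at 0.90, and Thrb was higher in cells with P3h2, at 0.94. Btbd11 was lower in cells with Thrb, with an interval of the CPM ratio of 0.417 to 0.597, as was Hs3st3a1, with a log2 ratio of -0.49, so that Thrb and this pair stood apart from each other as they did about Timd4. Cacna1a was close to even with every partner, between -0.10 and 0.22.

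In the carboplatin with saline library the few cells with Sgce, Dlc1, Magi1 or Btbd11 tended to be the same ones. Sgce was higher by 5.39 on the log2 scale in cells with Dlc1, and Dlc1 by 4.53 in cells with Sgce. Sgce and Dlc1 were higher in cells with Btbd11 too, by 3.56 and 3.08. The summed endothelial markers were 61.6 CPM in Dlc1-positive and 53.6 CPM in Dlc1-negative cells of this library. B cell markers were higher by a ratio of 5.32 (4.05 to 6.90) in Sgce-positive cells and of 3.17 (2.44 to 4.07) in Dlc1-positive cells, with a ratio of 0.510 (0.219 to 1.01) in Magi1-positive cells, while mural markers had a ratio of 1.73 (1.04 to 2.74) for Dlc1. No doublets were removed, and the part of these markers was not tested. In the carboplatin with AngII/PE library, by contrast, the endothelial markers stood at 173 CPM in the 43 Dlc1-positive and 60.6 CPM in the Dlc1-negative macrophages. They stood at 240 CPM in Magi1-positive cells, where the ratio to Magi1-negative ones had an interval of 3.38 to 4.70. Their part in the few UMIs there was not tested.

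**Figure D4:**
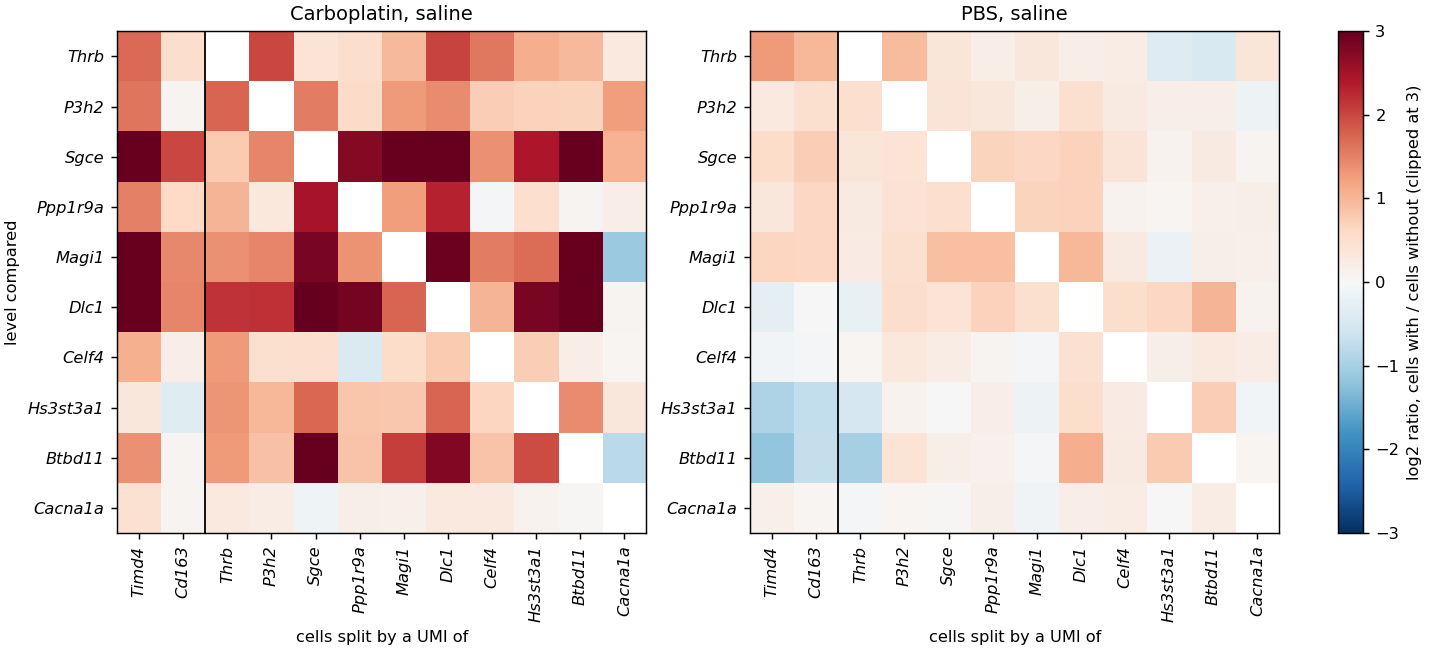
Log2 ratio of the level of the row gene in macrophages with a UMI of the column gene over those without, in the carboplatin (left) and PBS (right) library under saline; red is higher in cells with the column gene, and colours stop at 3. After carboplatin most squares that join Sgce, Magi1, Dlc1 and Btbd11 are dark, as are those of Sgce, Magi1 and Dlc1 with Timd4, while after PBS values are pale and Btbd11 and Hs3st3a1 are blue with Timd4, Cd163 and Thrb.

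Among the macrophage-like clusters all 10 genes were higher in the resident-like cluster than in the other macrophages in the PBS with AngII/PE, carboplatin with saline and PBS with saline libraries, as a description, since the clusters were built on all genes. In the PBS with AngII/PE library the 90 resident-like cells, 4.23% of macrophages, held 41.1% of the Dlc1 UMIs, 35.6% of the Celf4 UMIs, 35.1% of the Sgce UMIs, 34.0% of the P3h2 UMIs and 32.9% of the Magi1 UMIs. Dlc1 stood at 200 CPM in resident-like and 11.0 CPM in other macrophages there, and P3h2 at 146 and 10.9 CPM. Cacna1a, with 93.8 and 35.0 CPM and 9.31% of its UMIs in those 90 cells, and Btbd11, with 28.5 and 9.50 CPM and 10.3%, were spread more widely.

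Within the resident-like cluster, AngII/PE and saline after PBS were close for several genes: Dlc1 had 200 CPM with AngII/PE and 197 CPM with saline, Sgce 49.4 and 44.9 CPM, Magi1 46.9 and 35.3 CPM, and Hs3st3a1 60.3 and 70.3 CPM. Celf4 had 43.5 CPM with AngII/PE and 76.8 CPM with saline, and Thrb 37.7 and 58.5 CPM. Cacna1a lay furthest apart, at 93.8 CPM with AngII/PE and 327 CPM with saline. The median log2 ratio of AngII/PE over saline in that cluster was -0.25 beside 0.01 for all genes, whereas it was -3.03 over all macrophages. Of the members 1 was at least 2-fold lower, against 2.07% of all genes, and none higher, against 1.33%. In the other macrophages after PBS, 2037 cells with AngII/PE and 170 with saline, each of the genes was lower with AngII/PE too. Dlc1 stood there at 11.0 CPM with AngII/PE and 53.3 CPM with saline, P3h2 at 10.9 and 56.0 CPM. Ppp1r9a, at 15.4 and 27.4 CPM, and Btbd11, at 9.50 and 12.2 CPM, differed less. The part of the share of resident-like cells in the pump difference was not tested.

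The carboplatin comparison was read in the same cluster. Within the resident-like cluster under saline, with 844 and 1779 cells, Dlc1 stood at 26.3 CPM in the carboplatin and 197 CPM in the PBS library, P3h2 at 52.2 and 176 CPM, and Sgce at 4.80 and 44.9 CPM. Celf4 stood at 39.2 and 76.8 CPM and Cacna1a at 314 and 327 CPM. With log-normalised clustering the resident-like cluster held 300 carboplatin and 976 PBS cells under saline, so its extent depends on the method. The part of cell make-up in the carboplatin difference was not tested.

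**Figure D5:**
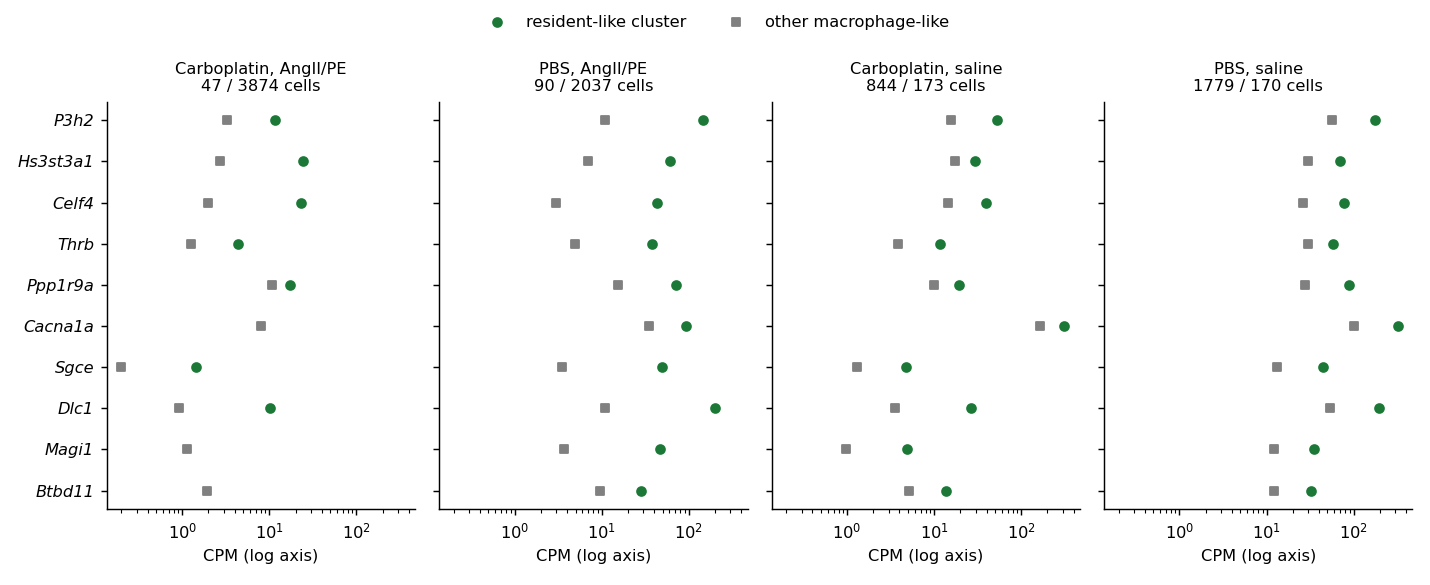
CPM of the 10 genes on a log axis in the resident-like cluster (green circles) and in all other macrophage-like cells (grey squares) of each library, with cell numbers above; a missing circle is a count of 0. For PBS with AngII/PE the resident-like cells reach 200 CPM for Dlc1, near their 197 CPM for PBS with saline, while for carboplatin with saline they reach 26.3 CPM.

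A cluster with macrophage markers but few UMIs, left out of the macrophage class, held 602 cells of the carboplatin and 734 of the PBS library under saline, with medians of 3916 and 3513 UMIs per cell. All 10 genes were higher there than in the resident-like cluster in both libraries, with median log2 ratios of 1.11 and 0.98, beside 0.22 and 0.17 for all genes. At least 2-fold higher were 5 of the 10 in each library, against 11.1% of all genes in the carboplatin and 9.01% in the PBS library, and none was 2-fold lower, against 16.2% and 17.8%. Genes at least as long as the shortest of the 10 had medians of 0.92 and 0.88 there. Malat1, a nuclear RNA chosen after its values were seen, took 4.20% of UMIs in that cluster and 2.19% in the resident-like one of the carboplatin library, and 4.61% and 2.34% in the PBS library. The mitochondrial share was 5.40% and 3.14% in the carboplatin library and 5.02% and 2.60% in the PBS library. The part of cell integrity in these values was not tested.

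Outside macrophages several of the genes had higher levels in other cells of the sort. Dlc1 reached 3141 CPM in the mural-like and 842 CPM in the fibroblast-like cluster, against 136 CPM in the resident-like cluster over all libraries. Magi1 reached 962 CPM in endothelial-like cells against 24.7 CPM, Thrb 154 CPM in fibroblast-like cells against 41.2 CPM, and Sgce 159 CPM in fibroblast-like cells against 30.7 CPM. Hs3st3a1 and Cacna1a, in contrast, had no named cluster above the resident-like one, which held 55.5 and 310 CPM of them.

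Relatives and partners of the 10 genes were counted beside them. In 12 lists of such genes, such as heparan sulphate enzymes and calcium channel subunits, no gene that passed the limit on low values was 2-fold higher or lower in either carboplatin comparison. The lists are short and such calls are rare among all genes (0.695% lower under saline), so nothing is read from the absence of calls. Of 27 genes of heparan sulphate synthesis, 13 could be compared, with a median log2 ratio of 0.01 under saline. Of 19 genes of thyroid hormone signalling 11 could be compared, with a median of -0.07, and of 11 relatives and partners of Dlc1 all 11, with a median of -0.18, beside -0.04 for all genes. Among the 14 imprinted and neighbouring genes around Sgce and Ppp1r9a on chromosome 6, 4 could be compared, with a median of -0.16. Peg10, below the limit, had 8 UMIs in the carboplatin and 188 UMIs in the PBS library under saline, or 0.469 and 6.72 CPM. Gng11, also below it, had 143 and 195 UMIs, or 8.38 and 6.97 CPM. Cacna1d, another pore subunit and the only other channel gene of its list above the limit, stood at 70.0 CPM in the carboplatin and 67.3 CPM in the PBS library under saline, and at 165 and 169 CPM under AngII/PE.

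With AngII/PE against saline after PBS, 4 of the 11 relatives of Dlc1 were at least 2-fold lower, against 3.51% of all genes, with a median log2 ratio of -0.58. After carboplatin 1 of the 11 was, against 2.93% of all genes, with a median of -0.45. The list of resident macrophage genes was the one with compared genes past 2-fold after carboplatin. Under saline 5 of its 17 compared genes were lower, with a median of -0.64: Timd4, Cd163, the collectin Colec12 (25.7 CPM after carboplatin and 232 CPM after PBS), the complement receptor Vsig4 at 3.41-fold, and the chemokine Ccl24 at 2.80-fold. Under AngII/PE 4 were lower, with a median of 0.08: Timd4, Cd163, Vsig4 at 3.36-fold and Colec12 at 2.12-fold. Both receptors were in that list, so it is not separate from the question asked above.

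Across 15 library-by-cluster units of macrophages, the mean of the 10 genes on the log2(CPM + 5) scale was most like Tmcc1, with a Pearson correlation of 0.955, Gphn, a scaffold of inhibitory synapses, at 0.954, Timd4 at 0.946, the DNA demethylase Tet3 at 0.940 and Fam193a at 0.934, of 6262 genes compared. Timd4 ranked 3 and Cd163, at 0.765, ranked 294. The units share libraries, clusters and depth, so these are descriptions. Each member set against the mean of the others gave 0.963 for Dlc1, 0.956 for P3h2 and 0.784 for Cacna1a, the lowest of the 10.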

How the data were processed

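Single-cell RNA libraries of sorted heart phagocytes were analysed as deposited: raw UMI counts per gene and barcode, made with Cell Ranger 7.1.0 per the file headers (version 3 per the labels' protocols), aligned to mm10 per the labels' protocols. The authors worked in Seurat, 3.2.3 per the labels and 4 per the submitters' processing notes. The handling of intronic reads and of strand in counting: not given in the sources used here. Other genes of the matrices overlap P3h2, Celf4, Thrb and Cacna1a, so their counts carry that uncertainty.

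Barcodes were kept by the submitters' filters: mitochondrial share under 10%, under 30000 UMIs, more than 500 and fewer than 7000 genes. Kept cells of all libraries were normalised with SCTransform (sctransform 0.4.2, Seurat 5.3.0, R 4.3.3), reduced to 80 components and clustered at resolution 0.6, giving 23 clusters, named from marker lists. Of these, 6 were macrophage-like. Clusters with macrophage markers were left unnamed where their UMIs were under 50% of their libraries' median or rRNA-derived transcripts led; these limits were set after the data were seen. No doublets were removed.

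UMIs were summed per library over the macrophage-like clusters (not the cycling one) and scaled to their total (CPM). CPM carry exact Poisson intervals, ratios exact conditional binomial and shares exact Clopper-Pearson intervals, all at 95%; for a count of 0 the floor is 3 counts. Scripts used Python 3.11.15 with scipy 1.17.1 and were tested on simulated counts. Gene positions came from GENCODE of the same build.

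Genes named are the 10, Timd4, Cd163, list genes past 2-fold after carboplatin and the 5 most similar genes. Cacna1d, Peg10, Gng11 and list medians are named outside that rule, after their values were seen. The 10 genes, the lists and the alternatives tried were chosen with earlier results of these data known.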

Additional observations from a re-analysis of the deposited data

Results flagged for a closer look

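Cacna1a went in opposite directions in cells called female and male from sex-linked transcripts, which the pooled library hides. Under saline, female-called macrophages held 288 CPM in the carboplatin and 203 CPM in the PBS library, a log2 ratio of 0.51, from 487 and 691 cells. Male-called macrophages held 272 CPM in the carboplatin and 444 CPM in the PBS library, a log2 ratio of -0.71, from 386 and 828 cells. In the carboplatin library 87.7% of female-called and 83.4% of male-called cells had a UMI of Cacna1a, and in the PBS library 55.9% and 78.9% did. The difference between the sexes was not tested, since the mice of a library cannot be told apart. Under AngII/PE both were lower after carboplatin, but by unlike folds. Female-called cells held 7.31 CPM in the carboplatin and 10.8 CPM in the PBS library, 1.47-fold lower. Male-called cells held 8.35 and 48.3 CPM, 5.78-fold lower.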

How the results depend on the processing

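Of 77 recomputed values of the 7 medians given above, 58 stayed within the counting interval of the value reported, 19 moved outside it and none changed sign. For carboplatin over PBS under saline (-2.05), the median log2 ratio was -1.87 with log-normalised clustering, -1.76 with the unnamed clusters included (8 of 10 genes at least 2-fold lower), -1.63 in male-called and -2.33 in female-called cells. For carboplatin over PBS under AngII/PE (-2.23) it was -3.28 in the resident-like cluster alone, with 47 and 90 cells and 3 genes at the floor. The 47 cells held 0 Timd4 UMIs and less Cd163 than other macrophages, so their resident name is weak. For AngII/PE over saline after PBS (-3.03) it was -2.29 without cells with 3 or more UMIs of other cells' markers and -0.25 in the resident-like cluster alone. After carboplatin (-3.47) it was -3.78 in male-called cells and -1.41 in the resident-like cluster alone, which rests on the same 47 cells. For the Timd4 split of the PBS with saline library (0.22) it was 0.14 with log-normalised clustering, 0.12 with the unnamed clusters included, 0.10 in male-called cells, 0.13 with cells thinned to 5000 UMIs and 0.098 in the resident-like cluster alone. For the Cd163 split (0.27) it was 0.021 without cells with other cells' markers, 0.013 in male-called and 0.61 in female-called cells, 0.12 thinned and 0.080 in the resident-like cluster alone. The causes were not tested. Removing cells with an endothelial marker UMI, chosen after the data were seen, moved none of the 7. No paired analysis was possible because each group has 1 library. Counts limit the precision most in the carboplatin with AngII/PE library, which has the most macrophage UMIs but low levels, with 7 to 605 UMIs behind the members and Timd4.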

Other observations

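The 10 genes are long. Their genomic spans had a median of 268 kb, between 72.9 kb for Sgce and 608 kb for Magi1, beside 26.8 kb for all genes compared, and 7 of the 10 spanned at least 200 kb, as did 4.67% of all. All 396 genes of that length include these 7, which were picked for low values and so raise the shares that follow. Of the 396, 4.29% were at least 2-fold lower in the carboplatin than in the PBS library under saline. With AngII/PE against saline after PBS, 16.2% were at least 2-fold lower. Whether length or intronic reads bear on the values of the 10 was not tested. In the GENCODE annotation of GRCm38, Dlc1 lies at chr8:36567751-36953143 on the minus strand, Thrb at chr14:17660261-18038090 and Btbd11 at chr10:85386814-85660292 on the plus strand. Sgce at chr6:4674350-4747207 on the minus strand and Ppp1r9a at chr6:4902917-5165661 on the plus strand lie on the same stretch of chromosome 6.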
